A study of Mus musculus with 2 samples.

Results

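The genes described here are 10 genes of the brain endothelium and its barrier, chosen by name: Cldn5, Cdh5, Pecam1, Flt1, Kdr, Tek, Slc2a1, Abcb1a, Mfsd2a and Sox17. They are 10 of the 21938 protein-coding genes of the GENCODE M21 annotation examined. Chromatin accessibility was mapped by DNase-seq, in which DNase I cuts nuclear DNA where it is not covered by nucleosomes and the cut sites are sequenced. The tissue was the right cerebral cortex of untreated adult female B6CASTF1/J mice, the F1 hybrid of C57BL/6J and CAST/EiJ, aged 18 to 20 months. There were 2 biological replicates in 1 group and no control or second condition, so values are set side by side and no test between groups was possible. Both replicates carry the same donor identifier, and nothing in the labels says whether they are separate animals, so the spread between them may be technical.

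Endothelial cells line the blood vessels of the brain and seal the space between blood and neural tissue with continuous tight junctions. VEGF and angiopoietin receptors on these cells guide vessel growth and stability, and Wnt signals from neural cells induce and keep the barrier. The barrier also rests on transporters that carry glucose and lipids inward or pump foreign compounds out, and on low transcytosis. Endothelial cells are a minority of the cells in cortex, and in a bulk tissue a low signal from fewer cells and less accessibility per cell cannot be told apart. A peak in bulk tissue likewise does not show which cell type it came from. The cell type behind the peaks at and around the genes described here was not tested.

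The sequences of the regions to which the results refer are given first. Each is the promoter of a member or the strongest region of its kind found in both replicates. The exception is the region 6.07 kb upstream of Slc2a1, the strongest of the shared distal regions nearest to that gene. They are 5′ to 3′ on the strand of the gene, from the C57BL/6J reference GRCm38.p6 (the build mm10), so the CAST/EiJ allele of the hybrid may differ. Capitals mark bases that lay inside a footprint, a short stretch protected from cutting, in both replicates. Stretches of annotated untranslated region were left out, and regions over 300 bp are shown by their central 300 bp.
Slc2a1 promoter, chr4:119108481-119108710, plus strand: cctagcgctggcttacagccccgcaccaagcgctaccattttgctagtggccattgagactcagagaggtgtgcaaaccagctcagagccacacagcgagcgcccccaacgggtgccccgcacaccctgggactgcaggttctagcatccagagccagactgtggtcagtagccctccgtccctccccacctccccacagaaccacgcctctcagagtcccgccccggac
Slc2a1 6.07 kb upstream, chr4:119102491-119102790, plus strand: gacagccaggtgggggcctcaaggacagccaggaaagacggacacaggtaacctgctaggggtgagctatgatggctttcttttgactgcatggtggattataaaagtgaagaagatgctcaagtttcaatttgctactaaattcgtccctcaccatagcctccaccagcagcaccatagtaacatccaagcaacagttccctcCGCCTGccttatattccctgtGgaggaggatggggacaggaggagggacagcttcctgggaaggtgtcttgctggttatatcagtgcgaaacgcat
Slc2a1 59.1 kb downstream of the 5′ end, chr4:119167761-119167940, plus strand: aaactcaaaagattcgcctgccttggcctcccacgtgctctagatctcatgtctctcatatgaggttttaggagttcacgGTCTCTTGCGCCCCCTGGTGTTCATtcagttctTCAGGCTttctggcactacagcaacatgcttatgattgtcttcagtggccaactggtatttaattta
Mfsd2a promoter, chr4:122961189-122961320, minus strand: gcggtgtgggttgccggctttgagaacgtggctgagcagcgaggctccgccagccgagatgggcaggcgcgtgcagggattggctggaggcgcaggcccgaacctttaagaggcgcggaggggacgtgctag
Mfsd2a intron, chr4:122955481-122955700, minus strand: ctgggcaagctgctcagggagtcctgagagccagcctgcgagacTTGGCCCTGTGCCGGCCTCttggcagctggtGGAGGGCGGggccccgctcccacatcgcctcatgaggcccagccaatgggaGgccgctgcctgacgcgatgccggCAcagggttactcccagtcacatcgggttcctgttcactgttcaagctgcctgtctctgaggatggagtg
Abcb1a internal start, chr5:8719681-8719860, plus strand: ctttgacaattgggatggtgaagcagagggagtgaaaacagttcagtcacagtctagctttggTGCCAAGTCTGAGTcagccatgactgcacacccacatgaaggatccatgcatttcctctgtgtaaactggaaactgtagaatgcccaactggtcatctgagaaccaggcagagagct
Cdh5 intron, chr8:104127241-104127520, plus strand: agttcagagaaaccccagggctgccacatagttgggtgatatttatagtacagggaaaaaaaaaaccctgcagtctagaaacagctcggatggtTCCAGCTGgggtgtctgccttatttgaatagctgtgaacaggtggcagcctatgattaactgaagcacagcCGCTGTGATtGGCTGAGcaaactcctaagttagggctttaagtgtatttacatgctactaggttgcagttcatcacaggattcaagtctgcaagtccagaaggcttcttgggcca
Cdh5 72.8 kb upstream, chr8:104028741-104028920, plus strand: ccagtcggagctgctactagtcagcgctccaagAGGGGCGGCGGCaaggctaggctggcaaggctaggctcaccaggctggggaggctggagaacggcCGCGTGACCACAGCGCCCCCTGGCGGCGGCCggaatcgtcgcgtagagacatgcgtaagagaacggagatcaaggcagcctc
Pecam1 intron, chr11:106658101-106658320, minus strand: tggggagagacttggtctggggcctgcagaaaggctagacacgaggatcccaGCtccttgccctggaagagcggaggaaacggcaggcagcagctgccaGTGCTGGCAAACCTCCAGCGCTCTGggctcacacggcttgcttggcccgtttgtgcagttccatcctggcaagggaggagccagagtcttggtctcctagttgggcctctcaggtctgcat
Flt1 intron, chr5:147565541-147565760, minus strand: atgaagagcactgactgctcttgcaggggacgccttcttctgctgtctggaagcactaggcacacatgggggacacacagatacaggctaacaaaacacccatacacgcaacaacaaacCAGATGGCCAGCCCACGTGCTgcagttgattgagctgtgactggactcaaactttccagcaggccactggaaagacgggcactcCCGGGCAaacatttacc
Kdr 9.36 kb upstream, chr5:75987701-75987940, minus strand: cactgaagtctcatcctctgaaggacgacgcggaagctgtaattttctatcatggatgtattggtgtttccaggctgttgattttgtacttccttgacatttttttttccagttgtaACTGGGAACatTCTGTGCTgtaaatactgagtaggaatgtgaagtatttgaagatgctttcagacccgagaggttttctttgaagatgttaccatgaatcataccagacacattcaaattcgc
Cldn5 80.2 kb upstream, chr16:18696501-18696700, plus strand: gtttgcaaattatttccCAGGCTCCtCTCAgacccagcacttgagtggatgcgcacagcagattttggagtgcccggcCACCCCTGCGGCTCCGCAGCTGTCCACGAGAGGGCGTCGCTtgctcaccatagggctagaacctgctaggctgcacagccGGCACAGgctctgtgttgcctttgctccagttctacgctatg
Sox17 74.6 kb upstream, chr1:4571791-4572090, minus strand: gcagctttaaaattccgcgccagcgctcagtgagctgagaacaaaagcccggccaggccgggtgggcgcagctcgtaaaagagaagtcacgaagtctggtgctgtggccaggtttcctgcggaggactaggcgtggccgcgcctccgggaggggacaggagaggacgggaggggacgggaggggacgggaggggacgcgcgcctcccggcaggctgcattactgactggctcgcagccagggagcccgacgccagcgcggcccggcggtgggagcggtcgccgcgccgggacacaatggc

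Each library has a shorter and a longer list of peaks, each peak with a deposited signal value of unstated normalization. The shorter lists held 86601 peaks in replicate 1 and 88482 in replicate 2, the longer ones 142029 and 143055, and there were 307092 and 279769 footprints. All values of a library were whole multiples of 1 step (0.00497 and 0.00892, tolerance 0.05 steps). Read as 1 read per M reads, those steps give an inferred 201 and 112 M reads (M for mega). Values ran higher in replicate 2: over the 65097 regions with a peak in both replicates the median ratio of replicate 2 to replicate 1 was 1.36. Neuron markers, looked at as a check of the labelled tissue, had promoter peaks in both replicates at 5 of 8 genes in the shorter lists. This share of 62.5% was near the 57.9% of all protein-coding genes. In the longer lists the count was 8 of 8, beside 62.4% of all genes. Syt1, a calcium sensor of synaptic vesicles, had a promoter value of 3.51 ± 0.363 (SD, n = 2), and Grin1, an NMDA receptor subunit, had 3.13 ± 0.976 (SD, n = 2). In the shorter lists Slc17a7 and Gad1 had a promoter peak in replicate 1 only, and Gad2 in neither replicate.

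Promoters reach 500 bp to each side of every annotated start site, and the strongest peak touching one gives its value. Slc2a1, Mfsd2a, Kdr and Abcb1a, 4 of the 10 genes, carried such a peak in both replicates, beside 57.9% of all protein-coding genes. The other 6 (Cldn5, Cdh5, Pecam1, Flt1, Tek and Sox17) had one in neither replicate, against 38.1% of all genes. With the longer lists the same count was 4 of 10, against 62.4% of all genes. All 3 transporter genes were among those with a promoter peak, as was 1 of the 3 receptors, and none of the junction and adhesion genes nor the transcription factor. Among the other endothelial and barrier genes described below, the junction genes Ocln and Tjp1 had one in both replicates and Esam in neither. Of the transporter genes there, Slco1c1, Abcg2, Slc7a5 and Slc16a1 had one in both and Slco1a4 in neither. A difference between functions was not tested.

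**Figure D1:**
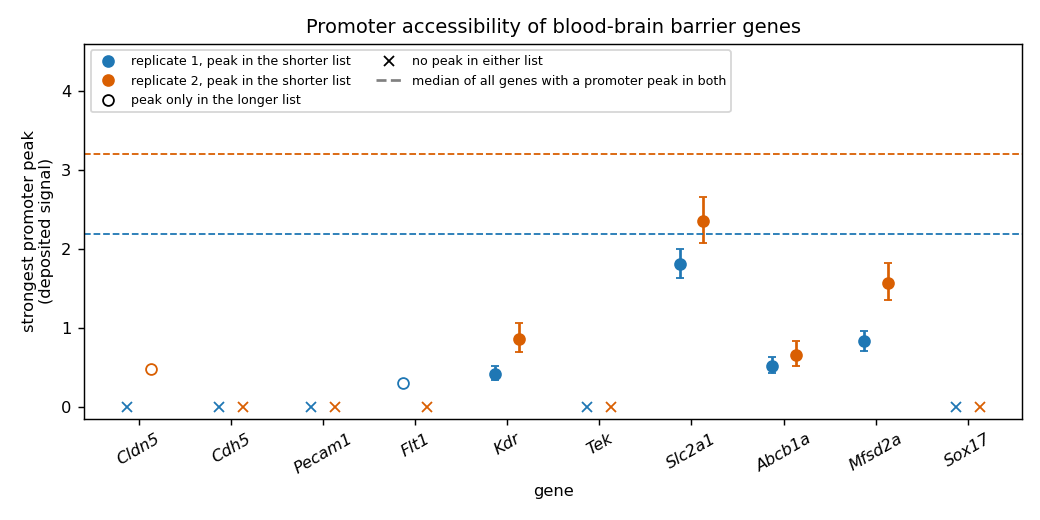
Value of the strongest promoter peak (deposited signal) of each of the 10 genes in replicate 1 (blue) and replicate 2 (orange), with exact 95% Poisson intervals on the inferred reads as bars, open circles for peaks found only in the longer list and crosses for no peak. The dashed lines are the medians of 12692 genes with a promoter peak in both replicates, 2.19 in replicate 1 and 3.20 in replicate 2, and all 4 genes with a promoter peak lie below the line of their replicate.

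The junction and adhesion genes had no promoter peak in the shorter list of either library. Cldn5 (chr16:18776847-18778262, plus strand) encodes claudin-5, the main tight junction claudin of brain endothelium. Only the longer list of replicate 2 held a peak at its start, with a value of 0.473, and neither list of replicate 1 held one. The deposited lists also give a false discovery rate (FDR) of cutting per interval, down to intervals too weak to become peaks, and list only intervals below 0.05. The lowest FDR within 500 bp of the Cldn5 start was 8.64e-04 in replicate 2, and no interval was listed in replicate 1. The signal at this start was thus found in 1 of the 2 libraries. Cdh5 (chr8:104101625-104144511, plus strand) encodes VE-cadherin of endothelial adherens junctions, and Pecam1 (chr11:106654217-106750628, minus strand) the adhesion molecule CD31. Neither of them had a listed interval within 500 bp of any of its start sites, 2 for Cdh5 and 8 for Pecam1, in either replicate.

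Of the receptors for vascular growth factors, Kdr alone had a promoter peak in both replicates. Kdr (chr5:75932827-75978458, minus strand) encodes VEGFR2, the main signalling receptor for VEGF-A. Its peak had a value of 0.422 in replicate 1 and 0.865 in replicate 2 (mean 0.644 ± 0.313, SD, n = 2), and it lay 138 to 317 bp downstream of the start, centred in the 5′ untranslated part. The exact 95% Poisson intervals of these values, 0.337 to 0.522 and 0.701 to 1.06, did not overlap. The value was higher than that of only 2.24% of genes with a promoter peak in replicate 1 and 8.11% in replicate 2, so this promoter was among the weakest called. Poisson intervals here rest on the inferred reads and cover counting error only. The higher values of replicate 2, found at 93.5% of promoters with a peak in both replicates, were not taken out of them. The lowest FDR was 1.58e-04 in replicate 1 and 9.59e-09 in replicate 2.

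Flt1 (chr5:147561604-147726011, minus strand) encodes VEGFR1, a receptor that also acts as a VEGF sink. At its start only the longer list of replicate 1 held a peak, with a value of 0.303 and a lowest FDR of 0.0214, and replicate 2 had no listed interval. A stronger peak lay just outside the promoter windows: a region in an exon of the gene, 1267 bp from an internal start, had 0.691 and 0.829. With windows of 2000 bp it counted as a promoter peak, with a value of 0.760 ± 0.0979 (SD, n = 2). Tek (chr4:94739289-94874976, plus strand) encodes TIE2, the angiopoietin receptor. None of its 4 start sites had a listed interval in either replicate.

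Slc2a1 and Mfsd2a, both transporter genes, had the highest promoter values of the 10 genes, and the value of Abcb1a lay near that of Kdr. Slc2a1 (chr4:119108711-119137983, plus strand) encodes GLUT1, the glucose transporter of the barrier. The promoter peak printed above had a value of 1.81 in replicate 1 and 2.35 in replicate 2 (mean 2.08 ± 0.385, SD, n = 2). Its exact 95% Poisson intervals, 1.63 to 2.00 and 2.08 to 2.66, did not overlap. Both values lay below the all-gene medians, above 41.9% and 36.6% of the 12692 genes. A second peak, centred 460 bp downstream of the 5′ end in the first intron, reached nearly the same height with 1.47 and 2.34. Slc2a1 thus had accessible chromatin across and just downstream of its group of start sites in both libraries. Its lowest FDR values, 1.16e-14 and 5.15e-26, were the lowest of the 10 genes in each replicate.

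Mfsd2a (chr4:122946850-122961188, minus strand) encodes the lipid transporter that brings docosahexaenoic acid into brain and limits transcytosis. Its promoter peak had a value of 0.830 in replicate 1 and 1.57 in replicate 2 (mean 1.20 ± 0.523, SD, n = 2). The exact 95% Poisson intervals, 0.709 to 0.966 and 1.35 to 1.82, did not overlap, and the ratio of 1.89 was above the median ratio of 1.41 over all promoters. The lowest FDR was 5.53e-09 and 2.12e-11.

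Abcb1a (chr5:8660077-8748575, plus strand) encodes P-glycoprotein, the efflux pump that keeps many drugs out of brain. Its strongest promoter peak had a value of 0.522 and 0.660 (mean 0.591 ± 0.0976, SD, n = 2). The exact 95% Poisson intervals, 0.427 to 0.632 and 0.518 to 0.828, overlapped. That peak did not lie at the 5′ end of the gene but 59.7 kb into it, at internal start sites of non-coding transcripts. At the 5′ end the strongest peak found in both replicates was centred 286 bp downstream of the start and had 0.313 and 0.410, and a peak of 0.321 across the start itself was in the shorter list of replicate 2 only, while the longer lists of both replicates held a peak touching it (0.214 and 0.410). With start sites of basic protein-coding transcripts only, the value of Abcb1a fell from 0.591 to 0.362 ± 0.0686 (SD, n = 2). The lowest FDR was 1.77e-05 and 7.83e-06 at the 5′ end, and 8.45e-11 and 3.88e-13 at the internal starts.

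Sox17 (chr1:4490931-4497354, minus strand) encodes an HMG-box transcription factor of arterial endothelium and acts in Wnt-dependent barrier formation. It had no promoter peak in any list. The lowest FDR at its 8 start sites was 0.0409 in replicate 1, over 7 bp at internal starts, and no interval was listed in replicate 2.

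The order of the promoter values was Slc2a1, then Mfsd2a, then Kdr and Abcb1a, in both replicates. Slc2a1 and Mfsd2a had Poisson intervals apart from each other and from the other two in each library. Those of Kdr and Abcb1a overlapped in both libraries, and Abcb1a was the higher in replicate 1 and Kdr in replicate 2.

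An interval with a listed FDR in both replicates was found in the promoters of 4 of the 10 genes, against 63.3% of all genes. The 3 genes without a listed interval in either replicate, Cdh5, Pecam1 and Tek, compare with 32.6% of all genes. Cldn5, Flt1 and Sox17 had one in a single replicate.

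**Figure D2:**
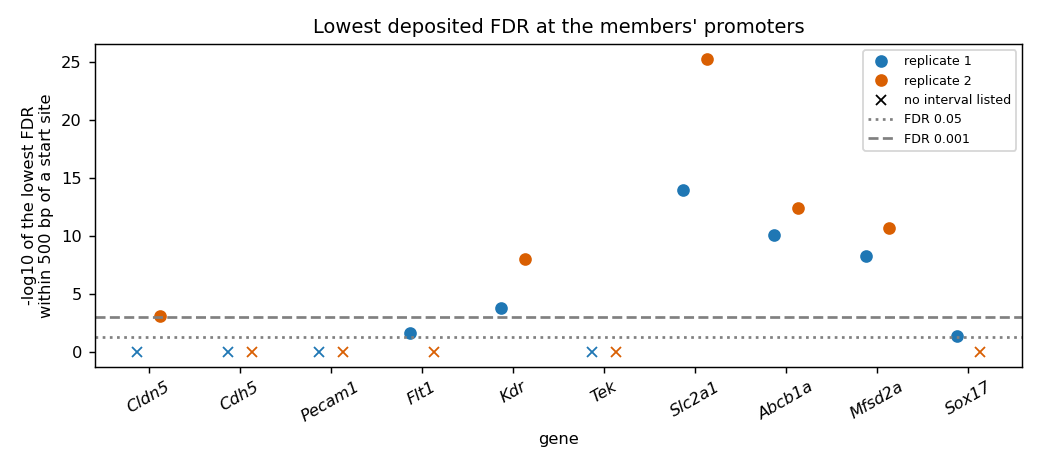
The −log10 of the lowest deposited FDR within 500 bp of a start site of each gene, in replicate 1 (blue) and replicate 2 (orange), with crosses at 0 where no interval below 0.05 was listed. The dotted line is an FDR of 0.05 and the dashed line 0.001; Slc2a1, Abcb1a, Mfsd2a and Kdr lie above the dashed line in both replicates, Cldn5 in replicate 2 only.

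Promoters rich in CpG dinucleotides are accessible in most tissues, and the 10 genes differed in this. The ratio of observed to expected CpG in the promoter window around the 5′ end was lowest in Cdh5 (0.244), Pecam1 (0.294) and Tek (0.317), the 3 genes without any listed interval. It was highest in Flt1 (0.811) and Slc2a1 (0.808). Flt1 and Sox17 (0.677) had no promoter peak in either replicate although 94.1% and 84.4% of the genes in their quartiles of CpG ratio had one in both. In the second quartile, which held Cldn5, Cdh5, Pecam1, Tek and Abcb1a, 42.5% of all genes had one, and 1 of these 5 genes did.

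Footprints lay inside the promoter peaks of both replicates at 4 of the 10 genes, against 56.6% of all genes. They were the same 4 genes that had peaks. The promoters of Slc2a1 held 2 footprints in replicate 1 and 8 in replicate 2, those of Abcb1a 4 and 6, that of Mfsd2a 1 and 2, and that of Kdr 1 and 3. In 5 of the 6 promoter regions found in both replicates a footprint of replicate 1 overlapped one of replicate 2. The share of all promoter regions with such an overlap was not taken.

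Within the gene bodies, away from any promoter, 11 regions were found in both replicates. At least 1 such region was found in 6 of the 10 genes, against 34.8% of all genes. Long genes hold more of them, so each count was set beside genes of like length (within a factor of 1.5). Flt1 had 4 against a median of 3, Pecam1 2 against 2, Cdh5 and Kdr 1 each against 1, Mfsd2a 2 and Slc2a1 1 each against 0. Tek had none, where genes of its length had a median of 3 and 86.0% of them had at least 1, and Abcb1a had none against a median of 2. The shared region of Abcb1a in an intron 59.7 kb into the gene was counted as a promoter, because it touches internal start sites. Cldn5 and Sox17 are short and had none, as had most genes of their length.

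The strongest gene-body region was in Mfsd2a, 5.6 kb into the gene in an intron (chr4:122955481-122955700). It had a value of 1.65 in replicate 1 and 2.27 in replicate 2 (mean 1.96 ± 0.444, SD, n = 2). In both libraries this intronic region stood higher than the promoter of the same gene. It held 5 footprints in replicate 1 and 4 in replicate 2, of which 4 overlapped. A second intronic region of Mfsd2a, 2.43 kb into the gene, had 0.820 and 0.999.

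The single gene-body region of Cdh5, in an intron 25.8 kb from the 5′ end, had 1.34 and 1.45 (mean 1.40 ± 0.0823, SD, n = 2). Here the replicates were nearly equal, while the start of the gene had no listed interval in either. The region held 6 footprints in replicate 1 and 2 in replicate 2. Pecam1 showed the same arrangement, with no listed interval at its starts and with intronic regions at 92.4 kb, close to the 3′ end (0.959 and 1.51), and at 72.4 kb (0.810 and 1.44).

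Flt1 had its strongest intronic regions 160 kb and 142 kb into the gene. The first had 0.820 in replicate 1 and 1.85 in replicate 2, the other 0.542 and 2.04. Replicate 2 was therefore 2.25 and 3.77 times higher there, well over the median ratio of 1.36 for all shared regions. The other Flt1 regions differed less, with 0.691 and 0.829 at 80.6 kb and 0.447 and 0.526 at 53.9 kb. Kdr had 1 region, in the 3′ untranslated part (0.388 and 0.606), and Slc2a1 had 1 in an intron 12.7 kb from the 5′ end (0.830 and 1.06).

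**Figure D3:**
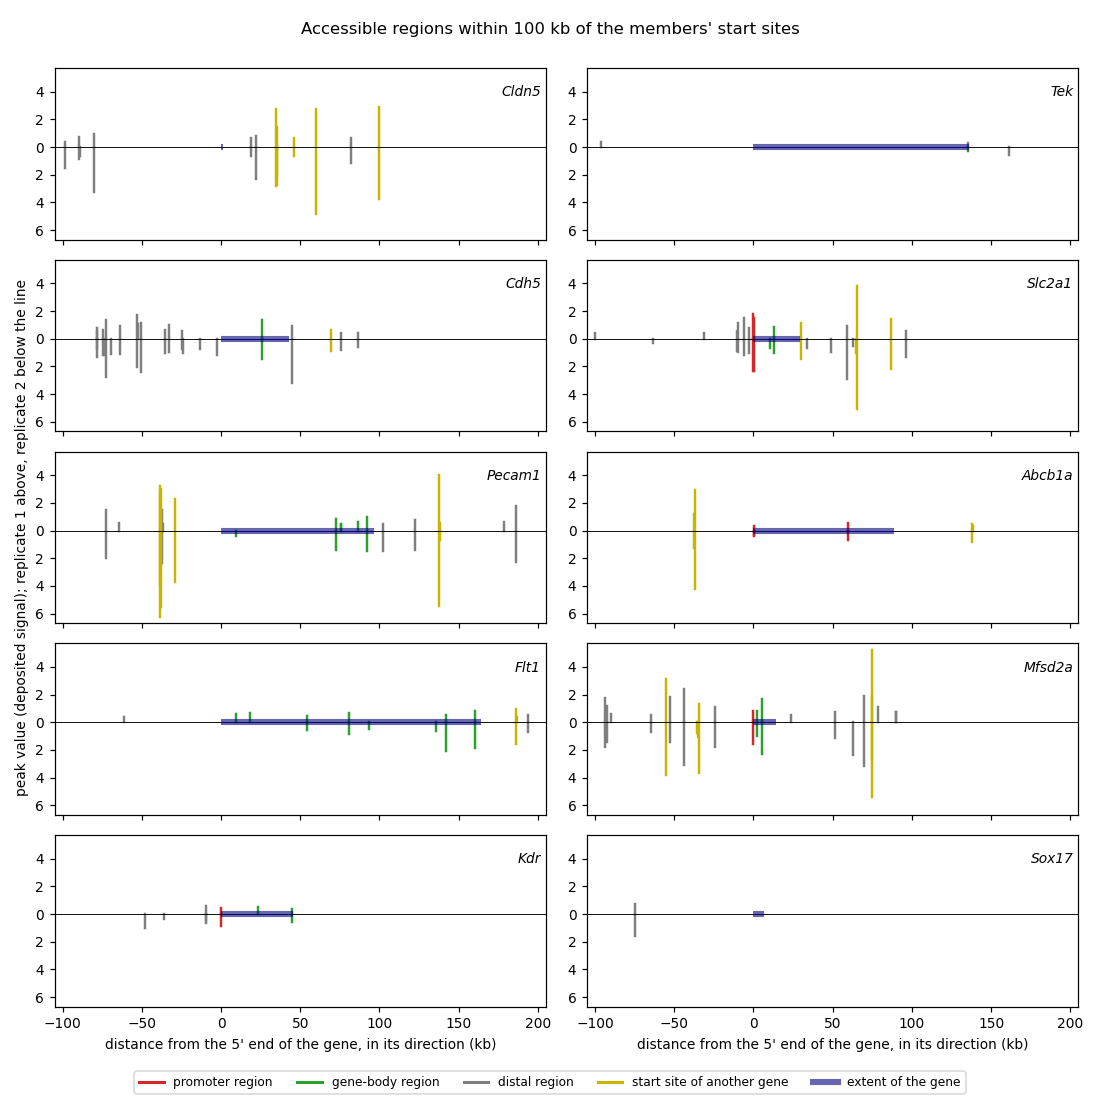
Peak values (deposited signal) of all regions within 100 kb of the start sites of each gene against the distance from its 5′ end in kb, replicate 1 above and replicate 2 below the line, coloured by kind of region; the blue bar is the extent of the gene. Cdh5 has 13 distal regions found in both replicates, of which 10 lie upstream, Sox17 has 1 region and Tek none found in both.

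Outside the genes and away from all promoters, 41 distal regions within 100 kb were found in both replicates. At least 1 was found for 8 of the 10 genes, against 86.1% of all genes, with a median of 3 regions per gene against 4 over all genes. When only regions nearest to the gene's own start were counted, 5 of the 10 genes had at least 1, against 37.5% of all genes. The regions were unevenly spread: Cdh5 had 13, Mfsd2a 8, Slc2a1 and Cldn5 6 each, Pecam1 5, Flt1, Kdr and Sox17 1 each, and Tek and Abcb1a none.

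Cdh5 had the most distal regions, and 10 of its 13 lay nearer to its own start than to that of any other coding gene. These 10 lay upstream, between 78.6 and 24.6 kb from the 5′ end. By mean log2 value the strongest lay 72.8 kb upstream, with 1.37 and 2.74 (mean 2.05 ± 0.969, SD, n = 2). Regions 53.4 kb upstream (1.71 and 2.02) and 50.5 kb upstream (1.17 and 2.38) were of like height. All 3 exceeded the median peak of the shorter list in their replicate, 0.721 and 0.999. Another region, 44.9 kb downstream of the 5′ end and nearest to Bean1, had 0.895 and 3.17.

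Slc2a1 had 4 regions nearest to it, all within 10.3 kb upstream. At 10.3 kb the values were 0.567 and 0.874, and at 9.72 kb they were 1.11 and 0.954. The region 6.07 kb upstream had 1.51 and 1.19 (mean 1.35 ± 0.224, SD, n = 2), and that at 2.8 kb had 0.795 and 1.03. Those at 9.72 and 6.07 kb were higher in replicate 1, which was so for only 5 of the 41 distal regions. By mean log2 value the strongest distal region of the gene lay 59.1 kb downstream of the 5′ end and nearest to Zfp691, with 0.905 and 2.88.

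Mfsd2a, Cldn5 and Pecam1 lie among other genes, and most of their distal regions were nearest to a neighbour. The strongest of Mfsd2a, 44.1 kb upstream and nearest to Mycl, had 2.41 and 3.08 (mean 2.74 ± 0.471, SD, n = 2). That of Cldn5, 80.2 kb upstream and nearest to Sept5, had 0.954 and 3.22, and none of the 6 Cldn5 regions was nearest to Cldn5 itself. That of Pecam1, in an intron of Tex2 186 kb from its 5′ end and 98646 bp from its nearest start site, had 1.78 and 2.26. One further Pecam1 region, 102 kb from its 5′ end and past its 3′ end, was nearest to Pecam1 and had 0.497 and 1.46.

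The remaining genes stood in sparse surroundings. Kdr had 1 distal region, 9.36 kb upstream, with 0.611 and 0.481. The only region in the shorter lists within 100 kb of Sox17 lay 74.6 kb upstream, with 0.711 and 1.59. Flt1 had 1, in an exon of Pan3, with 0.557 and 0.722. Tek had no shared region of any kind in the shorter lists, only weak peaks of single libraries.

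Replicate 2 was higher in all 6 promoter regions, all 11 gene-body regions and 36 of the 41 distal regions found in both. Over all shared regions it was higher in 84.5%, and over the promoters of all genes in 93.5%. After subtracting the all-gene median difference of -0.50 (log2 of replicate 1 over replicate 2), the promoters differed by 0.12 in Slc2a1, -0.42 in Mfsd2a, -0.54 in Kdr and 0.16 in Abcb1a. These 4 differences lay within the central range over all genes (5th to 95th percentile -0.59 to 0.54).

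The members' regions were searched on both strands for short letter strings of factors known in endothelium, in the central 200 bp of the 58 regions found in both replicates. The AP-1 string TGANTCA was in 8 of the 58 (13.8%, against 12.5% of all 65097 shared regions) and the SP/KLF string GGGCGG in 11 (19%, against 21%). The ETS strings CAGGAAG and CCGGAAG were in 3 and 2 (5.17% and 3.45%, against 8.81% and 4.26%). CTTTGAA (TCF/LEF) and TGTTTGC (FOX) were in 3 each (5.17%, against 3.47% and 3.77%), and ACAATAG (SOX) in 1 (1.72%, against 1.06%). None of the 58 held the other TCF/LEF string CTTTGAT, which was in 1.83% of all shared regions, or the other FOX string TGTTTAC, which was in 1.90%. The same holds for the other SOX string ACAATGG (1.66% of all shared regions) and for the NRF1 core (0.521%). In promoters, 250 bp before to 50 bp after the 5′ end, GGGCGG was in 7 of the 10 genes, against 43.0% of all promoters. Of these 7, Kdr, Slc2a1 and Abcb1a had a promoter peak in both replicates, and Cldn5, Cdh5, Flt1 and Sox17 in neither. Mfsd2a had a promoter peak but not the string. The first ETS string was in 2 of the 10 promoters (12.3% of all promoters) and the second in none (10.8%). The AP-1 string, 1 SOX string and 1 FOX string were in 1 promoter each (6.91%, 2.03% and 4.91%), and the other strings in none. In the printed intron of Mfsd2a, GGGCGG lay inside the capitals, in a footprint of both replicates. A match describes the letters of the reference and not binding.

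The CTCF core was in none of the 58 regions, against 0.495% of all shared regions. After the values of the regions had been seen, 2 shorter strings were added, a looser CTCF core and CCAGNNGGC, which can overlap each other. They were each in 6 of the 58 regions (10.3%, against 9.25% and 9.30%), and 10 regions held at least 1. In these 10 regions replicate 2 was a median of 3.06 times as high as replicate 1 (range 1.30 to 3.86), and 8 of the 10 were over 2 times as high, beside 37.9% of all shared regions with a shorter string. In the other 48 the median was 1.33 (0.764 to 2.92), and 5 were over 2 times as high, beside 10.1% of all shared regions without one. The printed regions 80.2 kb upstream of Cldn5 (ratio 3.37), 72.8 kb upstream of Cdh5 (ratio 2.00) and 59.1 kb from the Slc2a1 5′ end (ratio 3.18) each held such a string inside the capitals. Over all shared regions the median ratio was 1.72 in the 10662 with a shorter string and 1.32 in the 54435 without, and it was 2.30 in the 322 regions with the full core. The shorter strings were chosen on the members' values, so the difference among the members is a description only.

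**Figure D4:**
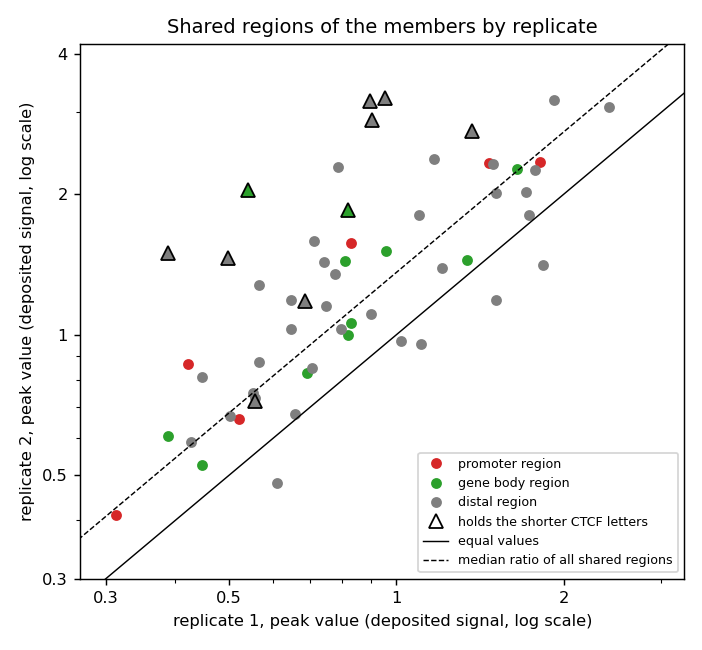
Peak value (deposited signal, log axes) in replicate 1 against replicate 2 for the 58 regions of the 10 genes found in both replicates, coloured by kind of region, with triangles for the 10 that hold a shorter CTCF string. The solid line marks equal values and the dashed line the median ratio of all shared regions, 1.36; 8 of the 10 triangles have a ratio over 2.

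The other genes of the barrier were described by lists of related genes. Of 24 other endothelial and barrier genes, 10 carried promoter peaks in both libraries (41.7%, beside the 57.9% of all genes), and the other 14 had one in neither. The highest were the transferrin receptor gene Tfrc (4.29 ± 0.581, SD, n = 2), the amino acid transporter gene Slc7a5 (3.42 ± 1.51, SD, n = 2) and the tight junction scaffold gene Tjp1 (2.61 ± 0.511, SD, n = 2). All 3 of these are also expressed in cell types other than endothelium. Erg and Fli1, ETS factors of endothelium, had a promoter peak in neither replicate. Another ETS gene of the list, Ets1, had one in both (2.60 ± 0.741, SD, n = 2). So had Abcg2 (mean 1.38), Vwf (0.597) and Itm2a (0.305).

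The list of VEGF and angiopoietin ligands and co-receptors also held the receptor gene Flt4. Its genes had promoter peaks in both replicates at 6 of 9 (66.7%, beside 57.9% of all genes). Vegfa, the ligand of Kdr and Flt1, had 2.09 ± 0.541 (SD, n = 2), the Flt1 ligand gene Pgf 1.81 ± 0.895 (SD, n = 2) and the co-receptor gene Nrp2 1.76 ± 0.314 (SD, n = 2). Each of these means, the highest of the list, exceeded that of Kdr, 0.644, but the Kdr promoter was among the weakest called. The same means lay below 2.71, the median of the mean promoter value over 12692 genes. Because the genes were picked by height, the comparison does not set ligand genes apart from receptor genes. The TIE2 ligand gene Angpt2 and the lymphatic receptor gene Flt4 had a promoter peak in neither replicate. Angpt1, the other TIE2 ligand gene of the list, had one in both (1.12 ± 0.0802, SD, n = 2).

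Among 14 genes of barrier Wnt signalling, promoter peaks of both libraries were found at 8 (57.1%, beside 57.9% of all genes). The highest were Ctnnb1, encoding β-catenin (3.35 ± 0.285, SD, n = 2), the receptor gene Fzd4 (2.93 ± 0.942, SD, n = 2) and the Wnt target Axin2 (2.52 ± 0.810, SD, n = 2). The ligand genes Wnt7b and Ndp had one in neither, while the ligand gene Wnt7a had one in both (2.04 ± 1.56, SD, n = 2). Mural cells wrap the endothelium, and of 10 of their markers only Rgs5 (0.644 ± 0.187, SD, n = 2) and Kcnj8 (0.430 ± 0.137, SD, n = 2) had a promoter peak in both replicates (20.0%), at values like those of Kdr and Abcb1a. Pdgfrb and Cspg4, the usual pericyte markers, had none in either. For markers of microglia and of blood cells the count was 1 of 6 each (16.7%). Those of astrocytes gave 3 of 6 (50%) and those of oligodendrocytes 2 of 6 (33.3%). All of these shares stand beside the 57.9% of all genes. With the longer lists the counts were 5 of 6 for astrocytes, 4 of 6 for oligodendrocytes and 3 of 10 for mural cells, and they stayed at 1 of 6 for microglia and for blood cells. They were 11 of 24 for the other endothelial and barrier genes, 7 of 9 for the VEGF and angiopoietin genes and 10 of 14 for Wnt signalling. The share of all genes in the longer lists was 62.4%. Median CpG ratios of the gene lists ranged from 0.222 (blood cells) to 0.778 (Wnt signalling), and their part in these counts was not tested.

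**Figure D5:**
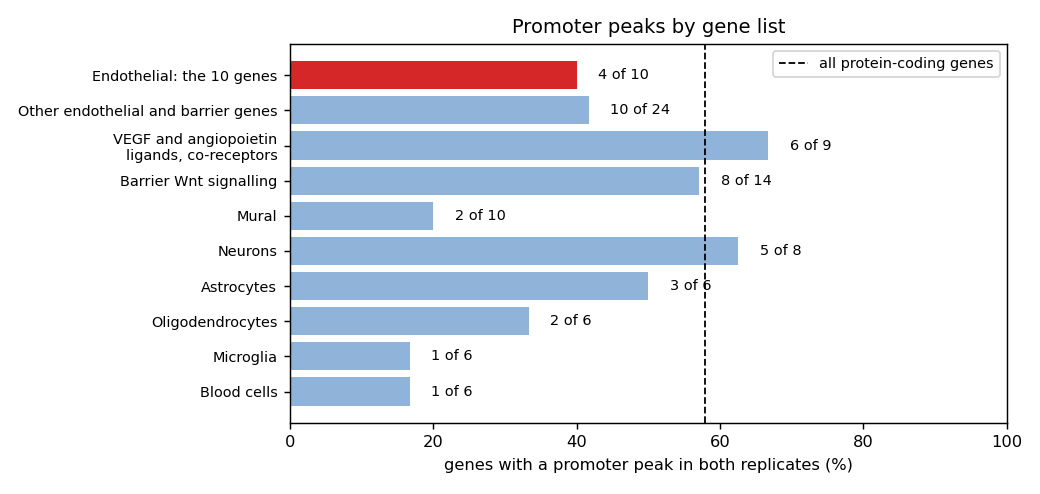
Share of the genes of each list with a promoter peak in both replicates (bars, in %), with the count of genes at the end of each bar and the share of all protein-coding genes, 57.9%, as the dashed line. The 10 genes (red, 4 of 10) and the other endothelial and barrier genes (10 of 24) lie left of the line, the neuron markers (5 of 8) and the VEGF and angiopoietin genes (6 of 9) right of it.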

How the data were processed

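DNase-seq was measured in 2 libraries of right cerebral cortex. Per the deposited descriptions, the authors called peaks, footprints and intervals separately for each library on mm10. Aligner, callers and settings: not given in the sources used here, likewise the normalization. The peak value is the signal the authors deposited. The interval lists hold an FDR, which is an adjusted p-value, and the authors deposited only intervals below 0.05. The footprint lists carry 1 deposited p-value threshold, 0.01, in all rows. No peak lay beyond the end of its chromosome in GRCm38.p6.

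The shorter peak list of each library was the main one. Genes and start sites came from GENCODE M21. Peaks of both libraries overlapping by at least 1 bp were merged, and shared regions are those holding peaks of both libraries. A distal region touched no promoter, lay outside the gene and within 100 kb of one of its start sites; regions at the start of another gene were left out. A footprint was counted when wholly inside a peak of its library. Reads were inferred from the step of the values, and exact 95% Poisson intervals were taken from them. The self-written scripts (Python 3.11.15, numpy 2.4.6, pandas 2.3.3, scipy 1.17.1) were tested on simulated peaks.

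All 10 genes are named. Of each other list the 3 genes with the highest mean log2 value were eligible, with up to 2 without a peak. Further genes of the lists were named after their values were seen. For each gene the strongest shared promoter, gene-body and distal region by mean log2 value were named; further regions of a gene were named after their values were seen. The genes and lists were chosen with earlier results of these data known. Alternatives were the longer list, the stronger 50% of peaks, 50% overlap, other windows, distances and start sites, and each replicate alone.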

Additional observations from a re-analysis of the deposited data

How the results depend on the processing

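With the stronger 50% of peaks, the count of members with a promoter peak fell from 4 to 2 (Slc2a1 and Mfsd2a), members with a footprint in one from 4 to 2, gene-body regions from 11 to 7 and distal regions from 41 to 22. With the longer lists there were 20 gene-body and 70 distal regions. Distal regions numbered 16 within 50 kb and 17 when only those nearest to the gene were counted. With a single replicate, gene-body regions numbered 18 to 19 and distal regions 56 in either. The members with a promoter peak were the same 4 genes in 5 of 8 alternatives; windows of 100 bp lost Kdr and windows of 2000 bp added Flt1. The value of Abcb1a was 0.362 with basic protein-coding start sites, and Flt1 gained 0.760 with windows of 2000 bp. Of the CTCF strings, the shorter ones raised the matching regions from 0 to 10. No paired analysis was possible because there is only 1 group. With 2 libraries of 1 group, n = 2 limits every SD given. The depth is inferred from the values, so the counting intervals rest on that inference. A promoter without a peak in the shorter lists can still hold weaker signal, as at Cldn5, Flt1 and Sox17 in 1 replicate each, and at Cdh5, Pecam1 and Tek none was detectable at this depth.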

Other observations

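Regions found in the shorter list of a single library were also present around the 10 genes. In gene bodies there were 6 in replicate 1 only and 5 in replicate 2 only, and among distal regions 14 and 15. Of the 22 gene-body and 70 distal regions, 11 and 41 were found in both, beside 61.3% of all 106187 merged regions. Peaks of both longer lists were present at 9 of the single-library gene-body regions and at 18 of the single-library distal regions. The region nearest to the start of Cdh5 was one of them: a peak centred 2.5 kb upstream had 1.17 in replicate 2 and no counterpart in the shorter list of replicate 1. Another, 52.3 kb upstream of Cdh5, had 1.09 in the shorter list of replicate 1 only, and 0.972 in the longer list of replicate 2. The strongest lay 62.7 kb from the Mfsd2a 5′ end and had 2.37 in the shorter list of replicate 2 only. The longer list of replicate 1 had 0.760 there. Around Tek, which had no shared region, single-library peaks of the shorter lists had 0.303 in replicate 2 in the 3′ untranslated part and 0.273 in replicate 1 just past it. Others had 0.333 in replicate 1 at 96 kb upstream and 0.571 in replicate 2 at 162 kb from the 5′ end. In the longer lists the other replicate had 0.273 in the 3′ untranslated part and 0.267 at 96 kb upstream. Inside Flt1, peaks 18.4 kb and 9.57 kb from the 5′ end, the nearest to it, had 0.661 and 0.616 in the shorter list of replicate 1 only. In the longer list of replicate 2 these regions had 0.553 and 0.731.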
